A study of Mus musculus with 18 samples.

Results

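Keratins are the intermediate filament proteins of epithelial cells. The genes described here are the 51 symbols of the count table that consist of Krt, a number and at most 1 further letter, out of 23337 symbols in all. Keratin-associated proteins of the hair (Krtap genes) are not among them. The 51 genes had between them 27 members on chromosome 11 and 23 on chromosome 15 of GRCm38, and Krt85 had no position in the annotation used. In all, 35 of the 51 passed the filter on low counts and were tested, and the other 16 are given by their reads only.

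RNA was sequenced from mammary gland tissue of Cip2a-/- and wild type (WT) mice, 3 libraries in each of 6 groups. Cip2a encodes an inhibitor of the tumour suppressor phosphatase PP2A. All mice were of a mixed C57BL/6Jx129 background, and the glands were taken without their lymph nodes. Within each genotype, glands came from mice that had received nothing, from mice 2 weeks after the last of 6 weekly gavages of 1 mg of the carcinogen DMBA in oil, begun at 12 to 14 weeks of age, and, as tumour-free glands, from mice killed when DMBA tumours had arisen in any tissue (called the endpoint). A group that received oil alone was not analysed here, so effects of DMBA, of gavage, of oil and of the age reached by the endpoint cannot be told apart. The labels do not say how Cip2a was disrupted beyond the genotype, nor whether each library came from 1 mouse, and if libraries of a group share an animal the p-values measure only the spread between libraries.

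A keratin filament is built from obligate pairs of a type I and a type II keratin. In mouse, type I genes other than Krt18 lie in the chromosome 11 cluster, and type II genes and Krt18 lie in the chromosome 15 cluster. In the mammary duct the inner, luminal cells make Krt8, Krt18, Krt19 and Krt7, and the outer, basal (myoepithelial) cells make Krt5, Krt14 and Krt17. Other members belong to the overlying skin: Krt1 and Krt10 to the differentiating epidermis, Krt25 to Krt28 and Krt71 to Krt74 to the inner root sheath of the hair follicle, and Krt31 to Krt40 and Krt81 to Krt87 largely to the hair shaft.

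Promoter sequences of 4 members are shown, the luminal keratins Krt8 and Krt18 and the inner root sheath keratins Krt25 and Krt71. They are RefSeq windows on GRCm38.p6, from 250 bases before to 50 bases after the annotated start, read 5′ to 3′ on the gene's strand, and capitals mark the TATA box motif TATAAA. Krt8 is at chr15:102004293-102004592 (minus strand), Krt18 at chr15:102027966-102028265 (plus strand), Krt25 at chr11:99322902-99323201 (minus strand) and Krt71 at chr15:101743048-101743347 (minus strand).
Krt8: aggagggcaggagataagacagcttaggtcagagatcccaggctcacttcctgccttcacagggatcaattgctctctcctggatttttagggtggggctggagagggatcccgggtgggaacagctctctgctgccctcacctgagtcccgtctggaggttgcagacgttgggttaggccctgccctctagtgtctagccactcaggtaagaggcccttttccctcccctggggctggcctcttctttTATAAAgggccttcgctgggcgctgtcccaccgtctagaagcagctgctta
Krt18: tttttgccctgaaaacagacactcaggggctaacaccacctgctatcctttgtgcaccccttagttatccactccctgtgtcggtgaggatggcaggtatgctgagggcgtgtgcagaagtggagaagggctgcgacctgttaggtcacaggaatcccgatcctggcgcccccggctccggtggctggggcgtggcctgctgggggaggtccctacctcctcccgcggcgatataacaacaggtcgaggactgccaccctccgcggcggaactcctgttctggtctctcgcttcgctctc
Krt25: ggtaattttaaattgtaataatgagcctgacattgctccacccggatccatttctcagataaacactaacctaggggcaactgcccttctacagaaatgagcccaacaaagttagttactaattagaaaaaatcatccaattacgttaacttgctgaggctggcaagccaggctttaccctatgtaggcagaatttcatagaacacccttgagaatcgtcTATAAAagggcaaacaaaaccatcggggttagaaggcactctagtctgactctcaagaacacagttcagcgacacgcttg
Krt71: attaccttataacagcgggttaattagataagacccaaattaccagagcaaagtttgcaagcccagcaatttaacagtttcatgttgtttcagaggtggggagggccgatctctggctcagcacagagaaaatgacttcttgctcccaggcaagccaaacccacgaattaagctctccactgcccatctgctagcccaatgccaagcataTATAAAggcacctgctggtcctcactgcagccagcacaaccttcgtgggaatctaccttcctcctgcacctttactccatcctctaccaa
The first base of TATAAA was 30 bases before the start of Krt25 and 40 bases before that of Krt71. In Krt8 the motif began 1 base before the annotated start, and the Krt18 window held no match.

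A window was found for 34 of the 51 genes, 35 windows in all. TATAAA, searched on both strands, was in 18 of these 35 windows (51.4%), against 13.6% of the 32851 RefSeq windows of the same length. By class, it was in 6 of 7 inner root sheath and companion layer windows, in 6 of 9 hair shaft windows, in 1 of 3 luminal windows and in 0 of 2 basal windows. The GC box GGGCGG was in 5.71% of keratin windows and 35.7% of all windows. CCAAT was in 37.1% of keratin windows and 37.4% of all windows, and TGANTCA, the AP-1 motif, was in 5.71% and 7.81%. These matches describe the sequence of the windows only.

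Total counts per library ranged from 16121743 to 24586404. The symbol listed for Cip2a had 0 or 1 reads in every Cip2a-/- library and 15 to 126 reads in every WT library, as the labels would have it. Epcam, a surface protein of epithelial cells, was read in all 18 libraries, at 62.9 to 439 CPM (read counts scaled to a common library size) in 17 of them. WT endpoint library 1 stood apart, with 4.37 CPM of Epcam and 1146 keratin reads, against 8757 to 89148 keratin reads elsewhere. In that library a list of 10 skeletal muscle genes summed to 52020 CPM, 7 B cell genes to 1783 CPM and 5 brown fat genes to 8179 CPM. Muscle was not particular to it, as Cip2a-/- 2-week library 1 had 79640 CPM of the same list. In bulk tissue, fewer cells of a type and less RNA per cell cannot be told apart, and this holds for every keratin below.

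All 51 keratins had at least 1 read in some library, 17 had reads in all 18 libraries and 20 in fewer than 10 libraries. For 20 of the 51, a single library held more than 50% of the summed CPM. Per kilobase of transcript, the order of median levels over the 18 libraries was Krt18 with 215 CPM per kb, Krt19 with 197, Krt8 with 127, Krt5 with 42.85, Krt14 with 33.3, Krt7 with 23.3 and Krt17 with 14.6, and no other keratin had a median above 10. Next came Krt15, a keratin of basal and hair follicle bulge cells, at 5.51 CPM per kb, and then Krt36, a type I hair keratin, at 3.22. The ranges over libraries of neighbouring genes in this order overlapped. Within a library, however, the level per kb of Krt18 was above that of Krt8 in 18 of 18 libraries, and so was that of Krt19.

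**Figure D1:**
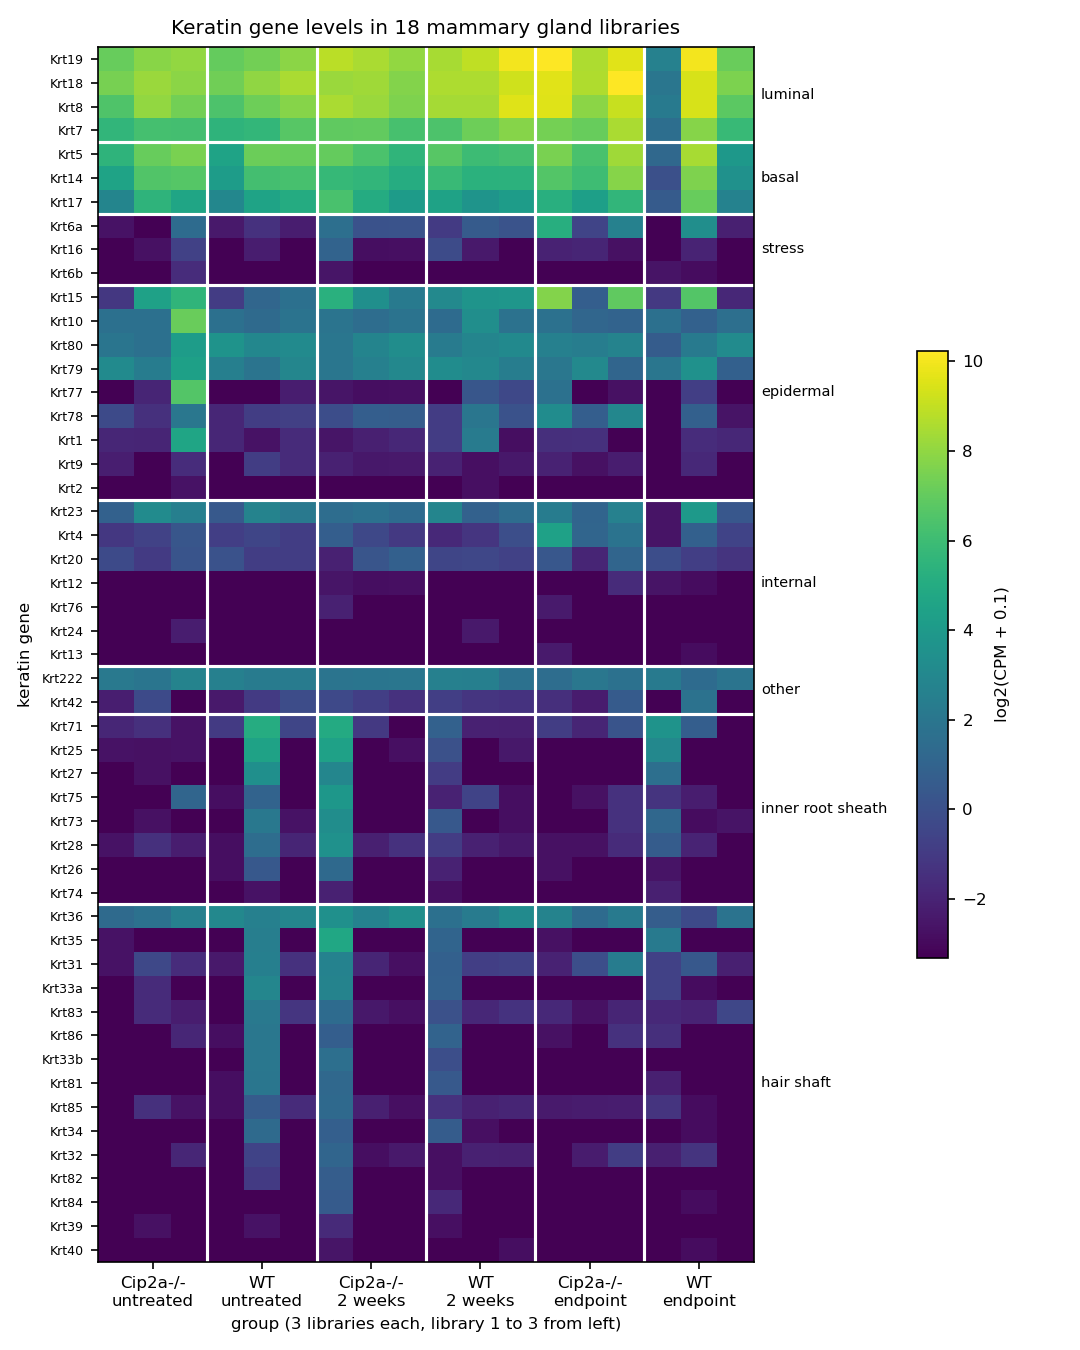
Level of each of the 51 keratins (rows, grouped by class) in each of the 18 libraries (columns, 3 per group), as log2(CPM + 0.1). Luminal and basal keratins are bright in every library but WT endpoint library 1, and most hair keratins other than Krt36 are bright in only a few columns.

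The first question was whether keratin levels differed after DMBA. The 4 luminal keratins had positive estimates in each genotype 2 weeks after the last dose, at log2 fold changes of 0.23 to 0.82 in Cip2a-/- and 0.83 to 1.82 in WT, and none of them passed the test. Krt19, the type I keratin without a tail domain, had 460, 372.5 and 263 CPM in Cip2a-/- 2-week glands, against 134, 226.5 and 261 CPM in Cip2a-/- untreated glands. In WT it had 359, 488 and 1026 CPM in 2-week glands, against 129, 165 and 236 CPM in untreated glands. All 6 libraries at 2 weeks were thus above all 6 untreated ones, by a narrow margin in Cip2a-/-.

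Krt19 was the 1 keratin of the 35 tested with no overlap between these conditions, where 0.711% of all 15482 tested genes were higher without overlap. Its log2 fold change, averaged over the genotypes, was 1.32 ± 0.72 (SE, n = 6 libraries each), with an adjusted p of 0.753 in edgeR's quasi-likelihood test with Benjamini-Hochberg adjustment over all tested genes, which is the test behind every adjusted p below unless another is named. No keratin was called in this comparison, where 0.0258% of all genes were, and 0 of the 35 had an unadjusted p under 0.05, as had 6.57% of all genes. DESeq2, which called 0.498% of the genes it tested, called 0 keratins, and so did limma voom.

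Krt8, the type II partner of Krt18 and Krt19, had 371, 291 and 194 CPM in Cip2a-/- 2-week glands, against 92.4, 262 and 161 CPM in Cip2a-/- untreated glands. In WT it had 343.5, 339 and 771 CPM in 2-week glands and 88.2, 151 and 222 CPM in untreated glands. The WT groups did not overlap, while 1 untreated Cip2a-/- gland lay above the lowest Cip2a-/- 2-week gland. The averaged log2 fold change of Krt8 was 1.19 ± 0.71 (SE, adjusted p = 0.777).

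Krt7, a type II keratin of ductal and glandular epithelia, had a log2 fold change of 0.97 ± 0.62 (adjusted p = 0.794). Krt18, the type I partner of Krt8, had a smaller one, 0.53 ± 0.66 (adjusted p = 0.919). It measured 296, 321 and 213 CPM in Cip2a-/- 2-week glands, against 174, 297 and 236 CPM in Cip2a-/- untreated glands, which overlap. All 4 luminal keratins had a positive estimate, with a median of 1.08, where the median of all tested genes was 0.

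The basal keratins did not share this direction. Krt14, the type I keratin of basal and myoepithelial cells, had 53.9, 48.8 and 33.5 CPM in Cip2a-/- 2-week glands, against 23.7, 93.5 and 100 CPM in Cip2a-/- untreated glands. In WT it had 59.2, 39.8 and 42.4 CPM in 2-week glands, against 18.1, 73.3 and 77.8 CPM in untreated glands. The groups overlap in both genotypes, and the untreated glands were the more scattered. Its averaged log2 fold change was -0.47 ± 0.79 (SE, adjusted p = 0.956), and that of its type II partner Krt5 was -0.41 ± 0.83 (adjusted p = 0.966). Krt17, a type I keratin of basal cells that is also induced in wounded skin, had 0.25 ± 0.80 (adjusted p = 0.985), and its sign turned when Cip2a-/- 2-week library 1 was left out (-0.16).

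**Figure D2:**
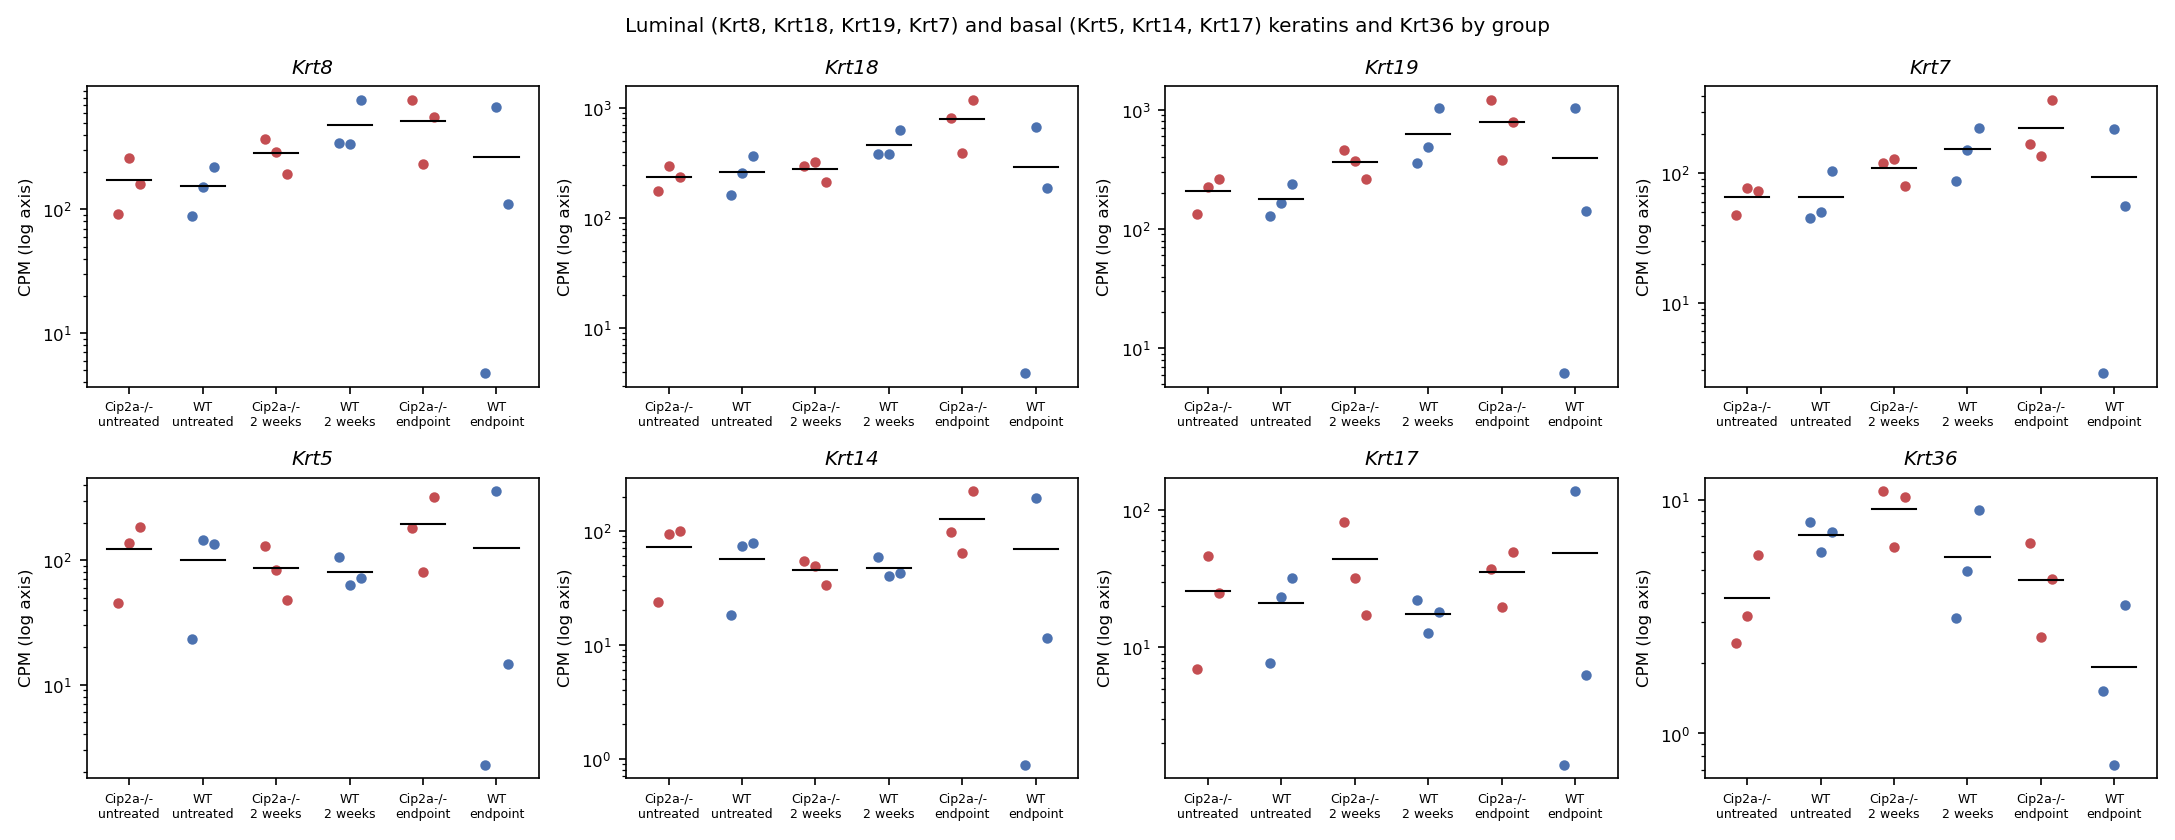
CPM on a log axis of 4 luminal keratins, 3 basal keratins and Krt36 in each library (points, Cip2a-/- red, WT blue), with the group mean as a bar (n = 3). The 2-week points of Krt19 all lie above its untreated points, and WT endpoint library 1 lies below the other 17 libraries for each luminal and basal keratin.

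Keratins were also set against one another within each library, as ratios of CPM per kb, taken from log2 levels with a prior count of 2. The ratio of Krt14 to Krt8 sets basal against luminal keratin. It was 0.168, 0.194 and 0.200 in Cip2a-/- 2-week glands, against 0.2965, 0.411 and 0.715 in Cip2a-/- untreated glands. In WT it was 0.199, 0.136 and 0.0635 in 2-week glands, against 0.238, 0.560 and 0.404 in untreated glands. Every 2-week library lay below every untreated library, in both genotypes.

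On the log2 scale this ratio averaged -2.74 ± 0.64 at 2 weeks and -1.29 ± 0.58 in untreated glands (SD, n = 6 each). At the endpoint it averaged -2.05 ± 0.75, with a range of 0.1185 to 0.462 that overlaps both other conditions. The ratio of Krt5 to Krt8 had a range of 0.0839 to 0.314 at 2 weeks and 0.234 to 1.02 in untreated glands, which overlap. These ratios were chosen with results of the same libraries known and are given as a description, without a test.

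The ratio of Krt8 to Epcam was 4.09, 2.75 and 3.21 in Cip2a-/- 2-week glands, against 1.14, 1.08 and 1.87 in Cip2a-/- untreated glands. In WT it was 1.84, 2.59 and 4.56 in 2-week glands, against 1.23, 1.14 and 1.27 in untreated glands. Within each genotype the conditions did not overlap, and across genotypes 1 untreated value lay just above the lowest 2-week value. The endpoint range, 1.13 to 2.84, overlaps both. Epcam itself averaged 89.1 CPM in Cip2a-/- 2-week and 142 CPM in Cip2a-/- untreated glands. In WT it averaged 168.9 CPM in 2-week and 131.6 CPM in untreated glands. These groups overlapped in both genotypes, and the part of Epcam in the ratio was not tested. Krt14 to Epcam, unlike Krt8 to Epcam, had 0.2895 to 0.687 at 2 weeks and 0.291 to 1.34 in untreated glands, nearly the same lower end. At 2 weeks the genotypes did not overlap, with 0.533 to 0.687 in Cip2a-/- and 0.2895 to 0.366 in WT. In untreated glands they overlapped, with 0.339 to 1.34 and 0.291 to 0.637. The median was 0.641 at 2 weeks against 0.446 untreated in Cip2a-/-, and 0.352 against 0.515 in WT. This split was not tested.

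With the mean level of 15 epithelial genes other than keratins as a covariate, the 2-week estimates of the luminal keratins kept their direction with smaller errors. Krt8 had a log2 fold change of 0.98 ± 0.24 (SE, unadjusted p = 0.00115, adjusted p = 0.228), and the adjusted p was 0.164 without WT endpoint library 1. Krt19 had 0.99 ± 0.32 (adjusted p = 0.435) and Krt7 had 0.74 ± 0.26 (adjusted p = 0.472). Krt18 had a smaller estimate, 0.25 ± 0.26 (adjusted p = 0.804). The basal keratins did not share a direction. Krt14 had -0.65 ± 0.27 (adjusted p = 0.553) and Krt5 had -0.61 ± 0.35 (adjusted p = 0.647), while Krt17 had 0.15 ± 0.33 (adjusted p = 0.922). None of these passed the threshold.

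The partners Krt18 and Krt8, neighbours on chromosome 15 (Krt8 at chr15:101996711-102004342, Krt18 at chr15:102028216-102032026), were not in a fixed proportion. This pair was picked after its values were seen. Krt18 to Krt8 was 1.09 in Cip2a-/- 2-week library 1, 1.10 in WT 2-week library 3 and between 1.5 and 1.52 in the other 4 libraries at 2 weeks. It was 2.57, 1.54 and 1.995 in Cip2a-/- untreated glands and 2.47, 2.295 and 2.23 in WT untreated glands. The conditions did not overlap, although the highest 2-week and the lowest untreated values nearly met.

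At the endpoint Krt18 to Krt8 covered 1.13 to 2.89. Each column header carries a number that the sources used here do not explain. The 6 libraries at 2 weeks carry the 6 highest numbers, and the untreated gland with the lowest Krt18 to Krt8 ratio was the one whose number came nearest to them. That gland was Cip2a-/- untreated library 2, and its place in the other ratios was mixed. Its Krt8 to Epcam, 1.08, was the lowest of the 18 libraries, and its Krt14 to Krt8, 0.411, was above every 2-week value. Its Krt14 to Epcam, 0.446, lay within the 2-week range of 0.2895 to 0.687. Its Krt5 to Krt14, 1.136, lay within the 2-week range of 1.097 to 1.868. Any relation to the numbers was not tested. Condition and whatever the numbers stand for cannot be told apart. The ratio of Krt19 to Krt8 (1.07 to 2.02 over all 18 libraries) and that of Krt5 to Krt14 (0.964 to 1.87) overlapped between all 3 conditions. A non-coding gene, Gm36026, overlaps Krt8 on the other strand, and the strand setting of the counting is not given, so its reads may be included.

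**Figure D3:**
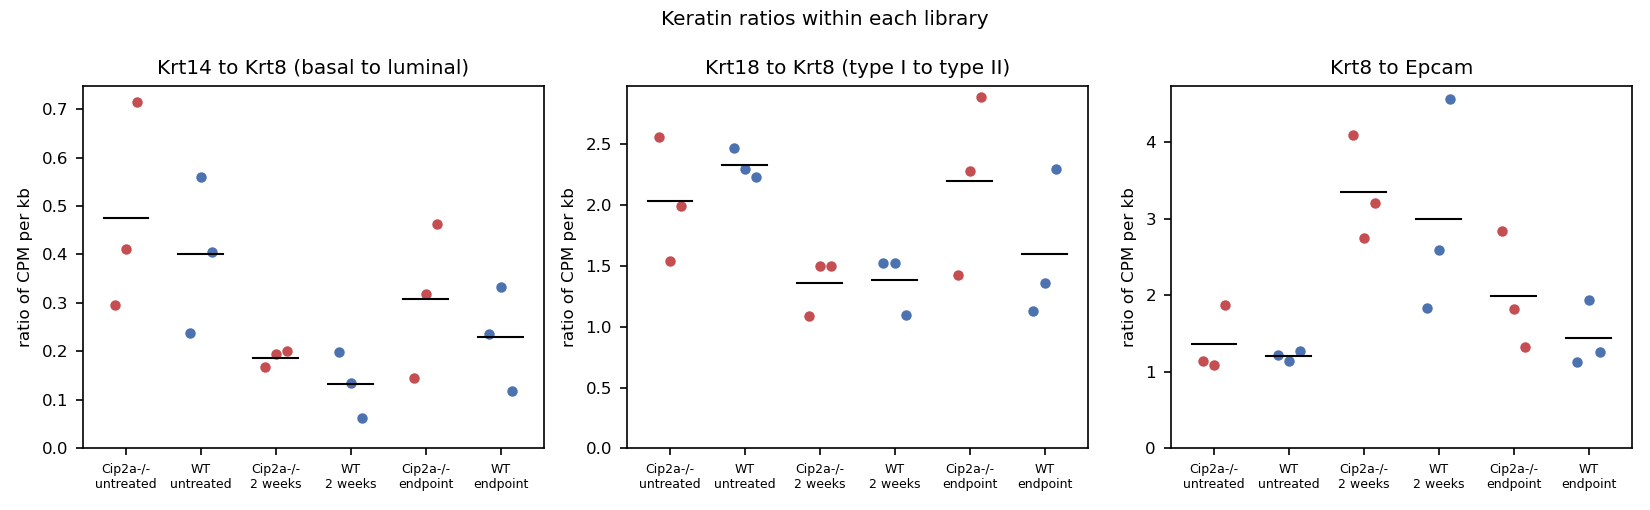
Ratios of CPM per kb within each library (points, Cip2a-/- red, WT blue, bars are group means, n = 3), for Krt14 to Krt8, Krt18 to Krt8 and Krt8 to Epcam. In the first panel the 2-week points, at 0.0635 to 0.200, all lie below the untreated points, and in the last they lie at 1.84 to 4.56, against 1.08 to 1.87 in untreated glands.

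Across the 18 libraries, log2 levels of keratin partners were compared by correlation, over 5 pairs, each with a permutation test of 100000 resamples. Krt5 and Krt14 gave r = 0.99 and rho = 0.98 (n = 18, permutation p adjusted over the 5 pairs = 2.5e-05 for each, from 1e-05, the smallest the resamples can give). Krt8 and Krt18 gave r = 0.96 and rho = 0.90, with the same adjusted permutation p. Without the 2 libraries farthest from the median of the first gene, r was 0.97 for Krt5 with Krt14 and 0.90 for Krt8 with Krt18. Within groups, r was 0.98 and 0.97 in the same order of pairs.

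Luminal Krt8 with basal Krt14 gave r = 0.87 and rho = 0.57 (adjusted permutation p = 0.00022 and 0.025), r = 0.75 without the 2 farthest libraries and r = 0.92 within groups. Krt14 with Krt10 gave r = 0.06 and rho = -0.19 (adjusted permutation p = 0.77 and 0.45), r = -0.01 without the 2 farthest libraries and r = 0.00 within groups. The epidermal partners Krt1 and Krt10 gave r = 0.89 (adjusted permutation p = 0.002) and r = 0.87 within groups but rho = 0.24 (adjusted permutation p = 0.42). Without the 2 farthest libraries their r was 0.01, so that relation rests on Cip2a-/- untreated library 3 and WT 2-week library 2.

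Tumour-free glands at the endpoint were widely scattered in their keratin levels. Krt19 in WT had the widest range of any keratin in any group, with 6.21, 1035 and 141 CPM in WT endpoint glands. In Cip2a-/- endpoint glands it had 1209, 380 and 779 CPM. Its averaged log2 fold change against untreated glands was 1.54 ± 0.72 (SE, adjusted p = 0.295). Krt8, with 766, 234 and 556 CPM in Cip2a-/- and 4.75, 674 and 111.5 CPM in WT endpoint glands, had 1.19 ± 0.71 (adjusted p = 0.429). Both estimates were lowest without WT endpoint library 2, at 0.33 for Krt19 and 0.10 for Krt8, and highest without WT endpoint library 1, at 1.83 and 1.47.

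Krt14 had 96.8, 64.5 and 223 CPM in Cip2a-/- endpoint glands and 0.887, 195 and 11.4 CPM in WT endpoint glands. Its log2 fold change against untreated glands was 0.56 ± 0.79 (adjusted p = 0.764), and it was -1.19 without WT endpoint library 2 and -0.66 with the epithelial covariate. No direction can therefore be given for it. No keratin was called in endpoint against untreated glands, where 0.252% of all genes were, while 6 of 35 had an unadjusted p under 0.05, as had 16.9% of all genes, so that count was near the background. DESeq2 called 2 keratins, Krt6a and Krt4, out of 5.13% of genes called, and limma voom called 0.

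Krt6a, a type II keratin induced in stressed and hyperproliferative epithelium, had 36.15, 0.591 and 6.03 CPM in Cip2a-/- endpoint glands and 0, 10.4 and 0.126 CPM in WT endpoint glands. In untreated glands it had 0.0598, 0 and 2.55 CPM in Cip2a-/- and 0.0868, 0.279 and 0.111 CPM in WT. The higher values came from 3 endpoint libraries, Cip2a-/- libraries 1 and 3 and WT library 2, which held 1098 of its 1315 reads. Its log2 fold change was 4.24 ± 1.38 (SE, adjusted p = 0.152 in edgeR and 0.0141 in DESeq2), and it was 6.27, past the threshold in edgeR, with a cornified epidermis covariate. With 1 library left out it ran from 1.41, without WT endpoint library 2, to 6.56, without Cip2a-/- untreated library 3, and none of these passed the threshold (edgeR adjusted p = 0.0743 to 0.683). Of its transcript, 44.8% of 50-base stretches also occur in other keratins, mostly Krt6b, so counts of the pair may be divided differently under another counting.

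Krt15 had 211, 1.56 and 122 CPM in Cip2a-/- endpoint glands and 0.380, 98.6 and 0.190 CPM in WT endpoint glands. The same 3 libraries held 8960 of its 12001 reads. In untreated glands it had 0.359, 21.8 and 46.1 CPM in Cip2a-/- and 0.434, 2.12 and 3.16 CPM in WT. Its log2 fold change was 3.21 ± 1.36 (adjusted p = 0.252) and -0.20 without WT endpoint library 2.

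Krt4, a type II keratin of internal stratified epithelia such as the oesophagus, had 21.3, 2.04 and 3.485 CPM in Cip2a-/- endpoint glands and 0.0634, 1.66 and 0.569 CPM in WT endpoint glands. In 2-week glands it had 1.58, 0.677 and 0.371 CPM in Cip2a-/- and 0.193, 0.325 and 0.841 CPM in WT. Cip2a-/- endpoint library 1 was the highest of all 18 libraries. Against untreated glands its averaged log2 fold change was 2.15 ± 0.71 (adjusted p = 0.156 in edgeR, 0.0393 in DESeq2), and it was 1.29 without Cip2a-/- endpoint library 1.

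The same 3 endpoint libraries had the highest Epcam of the 18, with 280.5, 439 and 362 CPM, against 4.37 to 252 CPM in the other 15 libraries. Ivl, a cornified envelope protein, was at 39.5 CPM in Cip2a-/- endpoint library 1 and at most 2.90 CPM in the others. Krt5 was at 181, 321 and 358 CPM in them, and the highest value elsewhere was 185 CPM. In these libraries 16 cornified epidermis genes summed to 233, 63.8 and 99.6 CPM, within the range of 9.32 to 282 CPM of the other libraries, and the part of any of these in the keratin values was not tested.

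Set against 2-week glands, the endpoint gave the only keratin called by edgeR. Krt36 was lower at the endpoint, with a log2 fold change of -1.29 ± 0.39 (SE, n = 6 libraries each, adjusted p = 0.0413), in a comparison in which 2067 of 15482 genes (13.4%) were called. At an unadjusted p under 0.05 there were 3 of 35 keratins and 30.1% of all genes. It had 6.52, 2.58 and 4.59 CPM in Cip2a-/- endpoint glands, against 10.9, 6.265 and 10.3 CPM in Cip2a-/- 2-week glands. In WT it had 1.52, 0.735 and 3.54 CPM in endpoint glands, against 3.13, 4.97 and 9.04 CPM in 2-week glands. The conditions overlapped in both genotypes.

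Within single genotypes no keratin was called by edgeR in any comparison of conditions. The shares of all genes called at 2 weeks against untreated were 0.0129% in Cip2a-/- and 0% in WT, at the endpoint against untreated 0% in Cip2a-/- and 0.0323% in WT, and at the endpoint against 2 weeks 0% in Cip2a-/- and 0.31% in WT. At an unadjusted p under 0.05 there were 7 keratins in Cip2a-/- (4.53% of all genes) and 0 in WT (4.23%) at 2 weeks against untreated. There were 4 in Cip2a-/- (14.6%) and 2 in WT (12%) at the endpoint against untreated, and 4 in Cip2a-/- (23.6%) and 1 in WT (22.4%) at the endpoint against 2 weeks. The 7 in Cip2a-/- at 2 weeks, of 35 tested, were above the share of all genes. Inner root sheath and companion layer keratins summed to 98.0 CPM in Cip2a-/- 2-week library 1, against 0.508 and 0.325 CPM in libraries 2 and 3 of that group. Their fitted changes there rest on 1 library, and its part in the count of 7 was not tested. DESeq2 called 0 keratins at 2 weeks against untreated (0.218% of genes in Cip2a-/-, 0.0828% in WT). It called 1 in each genotype at the endpoint against untreated, Krt4 in Cip2a-/- (1.84% of genes) and Krt36 in WT (1.9%), and the same 1 in each at the endpoint against 2 weeks (11.3% in Cip2a-/-, 9.58% in WT), and limma voom called 0 throughout.

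By separation of the 3 libraries of each group, Krt19, Krt36 and Krt7 were higher in Cip2a-/- 2-week than in Cip2a-/- untreated glands without overlap, as were 6.93% of all genes. In WT the same held for Krt8, Krt18, Krt19, Krt15 and Krt6a, as for 14.2% of all genes. Krt18, Krt19, Krt7 and Krt4 were higher without overlap in Cip2a-/- endpoint than in Cip2a-/- untreated glands (8.19% of all genes). Krt25 was lower (9.42% of all genes), but with 0 reads in each Cip2a-/- endpoint library against 1 in each Cip2a-/- untreated library, which shows no difference in level. Krt14, Krt18, Krt7 and Krt4 were higher without overlap in Cip2a-/- endpoint than in Cip2a-/- 2-week glands, as were 12.5% of all genes. The comparisons within a genotype share libraries, so these sets are not independent of each other.

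The call on Krt36 was a narrow one. It was lost with limma voom (adjusted p = 0.123), with no filter on low counts (0.0519), with only the compared groups in the fit (0.0971), and when any of 8 of the 12 libraries was left out, with log2 fold changes of -1.68 to -1.04 over the 12. In DESeq2 it was -1.28 (adjusted p = 0.00928). Among 35 keratins 1 call is 1 in 35, below the share of all genes called.

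Krt36 and Krt31 were the 2 hair shaft keratins read in all 18 libraries, Krt36 at 0.735 to 10.9 CPM and Krt31 at 0.0464 to 6.37 CPM. In untreated glands it had 2.45, 3.19 and 5.79 CPM in Cip2a-/- and 8.02, 5.97 and 7.31 CPM in WT. Against WT untreated glands, the WT endpoint glands were lower without overlap, with a log2 fold change of -1.89 ± 0.56 (adjusted p = 0.233, and 0.0412 in DESeq2), where 7.8% of all genes were lower without overlap. The difference between the genotypes in this change was 2.15 ± 0.77 on the log2 scale (interaction, adjusted p = 0.49). Krt36 shares 0.432% of its 50-base stretches with other keratins.

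Krt4 was second by p in endpoint against 2-week glands, at 2.07 ± 0.71 (adjusted p = 0.0655), and was called by DESeq2 (2.08, adjusted p = 0.0183). With 1 library left out edgeR called it in 2 of 12 fits, without WT endpoint library 1 (2.34, adjusted p = 0.0283) and without Cip2a-/- endpoint library 2 (2.31, adjusted p = 0.0422). It was 1.22 (adjusted p = 0.211) without Cip2a-/- endpoint library 1 and 1.42 (adjusted p = 0.192) without WT endpoint library 2. Next was Krt34, a hair shaft keratin with 98 of its 100 reads in the hair-rich libraries described further on, for which a fitted fold is not given. DESeq2 called 2 keratins of the 19.2% of genes it called, and voom called 0.

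**Figure D4:**
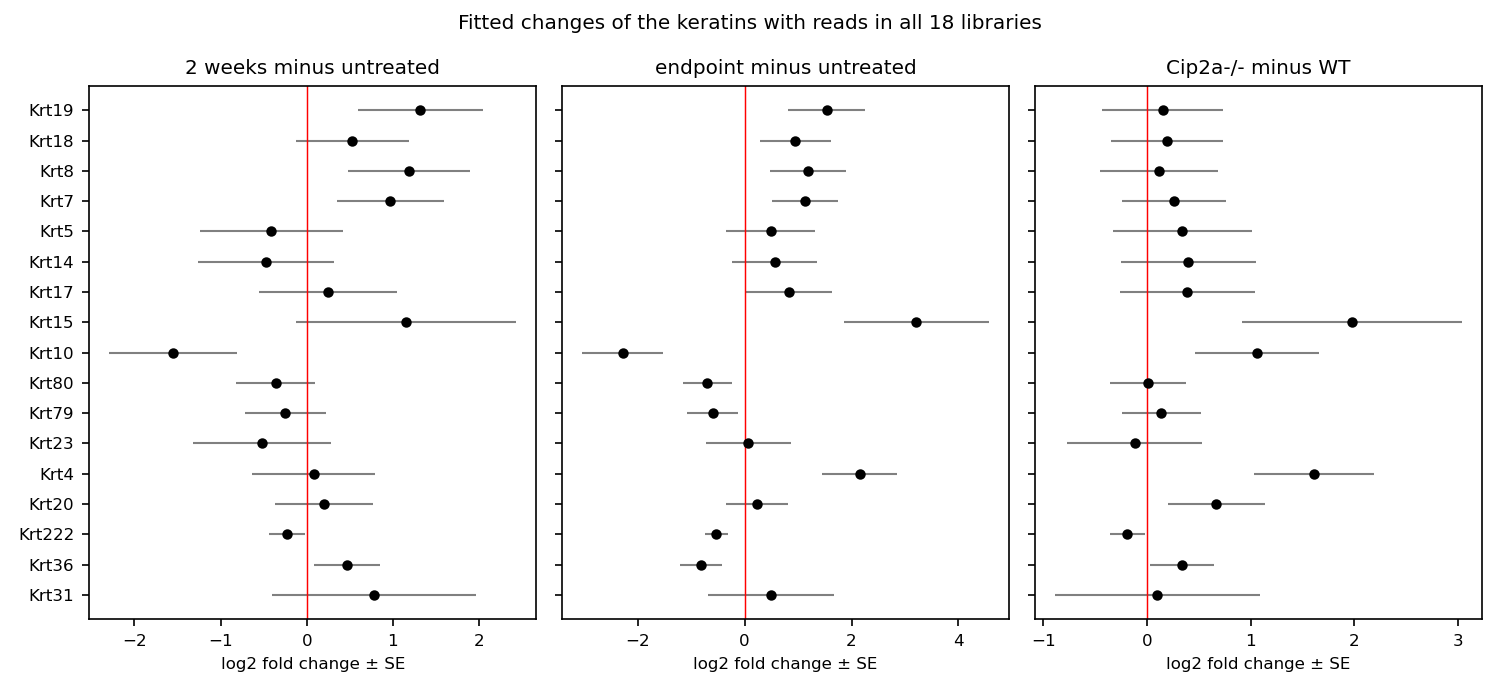
Fitted log2 fold changes with standard errors (bars) for the 17 keratins with reads in all 18 libraries, for 2 weeks minus untreated, endpoint minus untreated and Cip2a-/- minus WT, each averaged over the other factor. The luminal keratins lie right of 0 in the first 2 panels, with Krt19 at 1.32 and 1.54, and Krt10 lies left at -1.55 and -2.28.

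The skin keratins were read mainly in a few libraries. Krt10, the type I keratin of suprabasal epidermis, had 3.11, 3.135 and 142 CPM in Cip2a-/- untreated glands and 3.17, 2.46 and 3.54 CPM in WT untreated glands. Cip2a-/- untreated library 3 held 2453 of its 3570 reads, and the next highest library, WT 2-week library 2, had 10.2 CPM. Krt1, its type II partner, peaked in Cip2a-/- untreated library 3 with 25.0 CPM, followed by WT 2-week library 2 with 4.93 CPM, and was at or below 0.433 CPM in the other 16. Krt77, a type II keratin found in mouse epidermis, was at 98.7 CPM in Cip2a-/- untreated library 3, with 1704 of 1830 reads.

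That library also held 724 of 836 reads of Lor (loricrin, the main cornified envelope protein), 149 of 154 reads of Flg2 and 464 of 864 reads of Krtdap. Of the 16 cornified epidermis genes other than keratins, 12 had their highest level there. Cdsn, the most read of them, did not, with 47.0 CPM there and up to 151 CPM in Cip2a-/- endpoint library 1, and neither did Sbsn, with 57.8 CPM there and 63.6 CPM in WT endpoint library 2. Its sum over the 16 genes was 282 CPM, against 9.32 to 233 CPM in the others. The fold changes of Krt10 differ with and without it. In Cip2a-/- against WT untreated glands the log2 fold change was 4.01 ± 1.14 (SE, adjusted p = 1), and it was as low as 0.03 with 1 library left out. For 2-week against untreated glands it was -1.55 ± 0.74 (adjusted p = 0.747), and 0.44 without that library. For endpoint against untreated glands it was -2.28 ± 0.76 (adjusted p = 0.158), with values of -2.57 to -0.29 when libraries were left out in turn.

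Outside these libraries Krt10 was steady, at 1.78 to 3.56 CPM in the other 16. An antisense gene, Gm11940, overlaps Krt10 on the other strand, and its reads may be included. Of the CPM summed over the 18 libraries, Cip2a-/- untreated library 3 held 71.5% for Krt10, against 16.5% for Krt79 and 14.1% for Krt80. Krt80, a type II keratin of many epithelia, was at 1.46 to 18.1 CPM and Krt79, known from the hair canal and sebaceous duct, at 1.71 to 20.4 CPM, both highest in Cip2a-/- untreated library 3 yet read in all 18. Krt78, a type II epidermal keratin, was highest at 9.73 CPM in Cip2a-/- endpoint library 1, and Krt9 and Krt2, of footpad and upper epidermis, were at or below 0.447 CPM in every library.

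Hair keratins were concentrated in 4 libraries, singled out after their values were seen: WT untreated library 2, Cip2a-/- 2-week library 1, WT 2-week library 1 and WT endpoint library 1. These held 3336 of the 3565 reads of the 8 inner root sheath and companion layer keratins, with sums of 76.1, 98.0, 5.10 and 27.7 CPM, against 0.0632 to 2.32 CPM in the other 14. Krt71, the type II inner root sheath keratin whose promoter is shown above, was at 33.2, 31.2, 1.73 and 12.5 CPM in the 4, and at most 1.55 CPM elsewhere. Krt25, a type I keratin of the same layer, was at 22.05, 21.45, 0.915 and 7.98 CPM, and at most 0.0841 CPM elsewhere.

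Hair shaft keratins other than Krt36 had 1933 of 2259 reads in the same 4 libraries. Outside the 4, Krt31 reached 5.035 CPM in Cip2a-/- endpoint library 3. Krt35, an early hair matrix keratin, had 605 of 607 reads in the 4 libraries, at 5.53, 26.9, 1.97 and 4.63 CPM. The 52 Krtap genes, which make the matrix around hair shaft keratins, had 1320 of 1396 reads in the first 3 of these libraries, at sums of 15.02 to 37.0 CPM. In WT endpoint library 1 they summed to 0.507 CPM, although its inner root sheath keratins and Tchh (trichohyalin, of the inner root sheath, 4.435 CPM there and at most 1.33 CPM outside the 4) were high. The 4 libraries belong to 4 different groups.

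**Figure D5:**
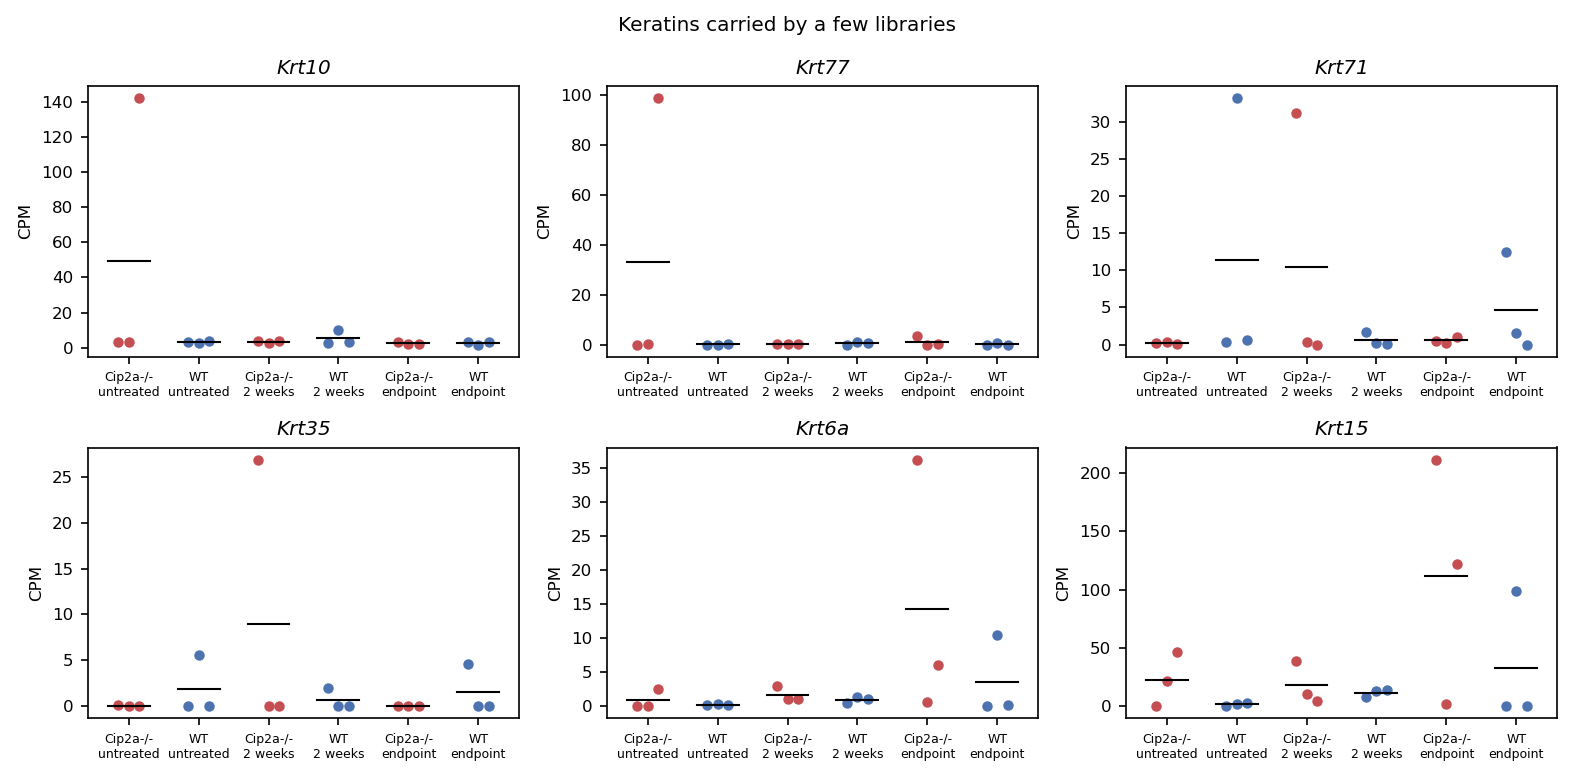
CPM (linear axis) of 6 keratins in each library (points, Cip2a-/- red, WT blue, bars are group means, n = 3). Krt10 and Krt77 are high in 1 library (142 and 98.7 CPM), Krt71 and Krt35 in up to 4, and Krt6a and Krt15 in 3 endpoint libraries.

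The comparison of genotypes asked whether loss of Cip2a went with other keratin levels. No keratin was called in Cip2a-/- against WT glands in any condition or on average. The shares of all genes called were 0% in untreated glands and 0.00646% in each of the 2-week, endpoint and averaged comparisons. At an unadjusted p under 0.05 there were 4 keratins in untreated (2.27% of all genes), 1 in 2-week (2.44%) and 3 in endpoint glands (10.7%) and 2 on average (0.917%). Inner root sheath and companion layer keratins summed to 76.1 CPM in WT untreated library 2, against 0.5205 and 0.831 CPM in WT untreated libraries 1 and 3. Krt10 and Krt77 were high only in Cip2a-/- untreated library 3 among untreated glands. The part of these libraries in the count of 4 was not tested. DESeq2 called 1 keratin, Krt4, at the endpoint, where it called 0.564% of genes, and 0 in untreated glands (0.0307% of genes), 2-week glands (0.0154%) and on average (0.0154%). Limma voom called 0 in each.

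Averaged over conditions, Krt8 had a log2 fold change of 0.12 ± 0.57 (SE, n = 9 libraries each, edgeR adjusted p = 1), and Krt14 had 0.40 ± 0.65. These intervals leave room for a difference in either direction. The luminal keratins had estimates of 0.12 to 0.26 and the basal keratins of 0.34 to 0.40, where the median of all genes was 0.01. The smallest p-values belonged to Krt4 (1.61 ± 0.58), Krt78 (1.70 ± 0.73) and Krt15 (1.98 ± 1.06), each with an edgeR adjusted p of 1. With 1 library left out these ran from 1.02 to 2.04 for Krt4, 1.11 to 3.04 for Krt78 and 1.56 to 4.26 for Krt15, and the estimate for Krt14 ran from 0.18 to 1.56. All 4 were highest without WT endpoint library 2. Each of the 3 had its 2 highest values in Cip2a-/- endpoint libraries 1 and 3.

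In endpoint glands Krt4 did not overlap between genotypes, where 2.26% of all genes were higher in Cip2a-/- without overlap. Its log2 fold change was 3.50 ± 1.03 (adjusted p = 0.458 in edgeR, 0.0466 in DESeq2), with values of 1.77 to 4.79 when libraries were left out in turn. Krt78 had 9.73, 1.56 and 7.635 CPM in Cip2a-/- endpoint glands and 0, 1.70 and 0.0632 CPM in WT endpoint glands, which overlap by 1 library (3.34 ± 1.31, adjusted p = 0.458, and 2.75 to 7.37 with 1 library left out). In 2-week glands Krt18 was lower in Cip2a-/- (296, 321 and 213 CPM) than in WT (384, 379 and 623 CPM) without overlap, as were 6.41% of all genes, with a log2 fold change of -0.74 ± 0.94 (adjusted p = 1). In untreated glands Krt36 and Krt71 were lower in Cip2a-/- without overlap, as were 6.5% of all genes. For Krt71 this separation rests on low counts, and it holds with or without the hair-rich WT untreated library 2. Krt71 had 3, 5 and 1 reads in Cip2a-/- untreated libraries and 9, 595 and 11 reads in WT untreated libraries. WT untreated libraries 1 and 3 were at 0.390 and 0.609 CPM, against at most 0.275 CPM in Cip2a-/- untreated glands.

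The change after DMBA was not shown to differ between genotypes for any keratin. In the interaction tests 0 keratins were called by edgeR, DESeq2 or voom at either time, where edgeR called 0% of all genes at both times and DESeq2 called 0.0358% at 2 weeks and 0.201% at the endpoint. At an unadjusted p under 0.05 there were 8 of 35 keratins for 2-week glands, where 2.9% of all genes were, and 3 of 35 for endpoint glands, where 10% were. The 3 with the smallest p at 2 weeks were Krt77, Krt10 and Krt71, each with its highest values in libraries named above.

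The remaining members were not called by edgeR. Krt222, a keratin-like gene on chromosome 11, was at 2.59 to 6.49 CPM over the 18 libraries, the smallest ratio of highest to lowest level among the 17 keratins read in all of them. It was lower without overlap in WT endpoint than in WT untreated glands (log2 fold change -0.53 ± 0.30, adjusted p = 0.496), as were 7.8% of all genes. Krt23, a type I keratin of glandular epithelia, was at 0.0634 to 15.75 CPM. Krt20, of intestinal and urothelial cells, was at 0.137 to 2.05 CPM. Krt16, the type I partner of Krt6a, had 71 reads in all, with 1.92 CPM in Cip2a-/- 2-week library 1 and at most 0.770 CPM elsewhere (2-week against untreated glands, 2.26 ± 1.26, adjusted p = 0.761). Krt42, known from the nail in mouse, had 207 reads, of which WT endpoint library 2 had the most at 3.33 CPM. In all, 9 keratins had fewer than 10 reads over the whole series, among them Krt12 of the cornea, Krt13 and Krt76.

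Keratin filaments end at desmosomes, which join cells, and at hemidesmosomes, which hold basal cells to the basement membrane. Of 9 tested desmosome genes, 0 passed the test in any of the averaged comparisons of conditions. Their median log2 fold change was 0.16 at 2 weeks against untreated, 0.39 at the endpoint against untreated and 0.18 at the endpoint against 2 weeks. Dsp, the plakin that binds keratins, had -0.16 ± 0.60 in the last (adjusted p = 0.878). Of 9 tested hemidesmosome genes, 1 was lower at the endpoint than at 2 weeks, Itga6, the integrin alpha subunit, with a log2 fold change of -1.11 ± 0.23 (adjusted p = 0.0103). That count of 1 in 9 is below the 13.4% of all genes called there. Itgb4, its partner subunit, had 0.69 ± 0.35 (adjusted p = 0.201).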

How the data were processed

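Polyadenylated RNA was sequenced from 18 mammary gland libraries, prepared with a stranded kit per the labels' protocols. The authors deposited raw read counts per gene, per the file headers. bcl2fastq 2.17, STAR 2.5.2b, Subread 1.5.1 and genome build mm10 are named in the submitters' processing notes. Not given in the sources used here are the annotation used for counting, whether counting was stranded, and what was done with reads that matched several places.

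The 15482 of 23337 genes that passed a filter on low counts were fitted together in edgeR 4.0.16 (R 4.3.3). The filter was filterByExpr with a minimum count of 10 and a minimum total of 15. The fit used TMM scaling, 1 term per group and the quasi-likelihood test. P-values were adjusted by Benjamini-Hochberg over the tested genes, with a threshold of 0.05. A prior count of 2 was used for the log2 levels behind the ratios, correlations and covariates. CPM are counts scaled by the TMM-adjusted library sizes. The SE of an edgeR log2 fold change was worked back from its test, as the absolute value over the square root of the F statistic. Transcript lengths and gene positions came from GENCODE and promoter windows from RefSeq, both on GRCm38. Motifs and correlations were computed in Python 3.11.15 with SciPy 1.17.1. The edgeR, DESeq2 and voom fits were tested on simulated counts with known changes, for 1 comparison. The simulation gave every gene the same spread and had no outlying library. It therefore does not show how the fits behave for keratins carried by a few libraries. Columns of samples outside the series numbered 0.

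The members and gene lists were chosen with earlier results of these data known. Named genes are the luminal and basal keratins, Krt15, Krt6a, Krt16, Krt1 and Krt10, any keratin called, the 3 with the smallest p in a comparison and the one with the widest range. Other members are named after their values were seen. Alternatives were DESeq2 1.42.0, limma 3.58.1 voom, other scaling, filters and prior count (0.5), fits of the compared groups alone, covariates, a replicate block and leaving out libraries. An exact test of 3 against 3 libraries cannot go below p = 0.1. Whether replicate numbers pair the libraries is not settled: of 45 same-numbered pairs, 17 had deviations correlated over 0.1.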

Additional observations from a re-analysis of the deposited data

How the results depend on the processing

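Of the values given, 306 of 329 log2 fold changes kept their direction and their side of the threshold under other tools, scalings, filters and covariates, as did 323 of 341 with 1 library left out. Counts of called keratins were unchanged in 166 of 179 and 126 of 132 cases. The main count was 0 in every comparison but averaged endpoint against 2-week glands, so most unchanged counts are 0 in both fits. There an unchanged count could hide another gene, as Krt4 was called in place of Krt36 without WT endpoint library 1. DESeq2 called 1 keratin in Cip2a-/- against WT endpoint glands, 1 in WT and 1 in Cip2a-/- endpoint against untreated glands, 1 in WT and 1 in Cip2a-/- endpoint against 2-week glands, and 2 in each of the averaged endpoint comparisons. The cornified epidermis covariate gave 1 call, Krt6a, in averaged endpoint against untreated glands. In averaged endpoint against 2-week glands the count was 0 with voom, 0 without a filter on low counts, 0 with only the compared groups, 0 without the 4 hair-rich libraries, 2 with the epithelial covariate and without WT endpoint library 1 (Krt28 and Krt85, with 16.3% of all genes called), and 0 to 1 with 1 library left out. Leaving out the 4 hair-rich libraries, the epithelial covariate without WT endpoint library 1, and leaving out WT endpoint library 1 with Cip2a-/- untreated library 3, were chosen after seeing the data.

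The signs of some estimates turned. At 2 weeks, Krt5 was 0.05 with the cornified covariate, Krt17 was -0.24 with voom and -0.21 without the 4 hair-rich libraries (-0.16 to 0.61 with 1 library left out), and Krt10 was 0.44 without the 2 outlying libraries (-1.98 to 0.44). At the endpoint against untreated, Krt14 was -0.71 with voom, -0.66 with the epithelial covariate and -0.80 when WT endpoint library 1 was also left out (-1.19 to 0.84 with 1 library left out), and Krt15 was -0.40 under that last setting (-0.20 to 3.73). Between genotypes, Krt8 was -0.23 without the 4 hair-rich libraries and -0.05 without the 2 outlying ones (-0.09 to 0.85). The cause was not tested.

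With the replicate number as a block, Krt36 at the endpoint against 2 weeks was -1.35 ± 0.32 (edgeR adjusted p = 0.0191), and no count of called keratins moved. Over all genes the block gave 20 calls, against 5, in WT endpoint against untreated glands, 75 against 48 in WT and 7 against 0 in Cip2a-/- endpoint against 2-week glands, and 60 against 39 in averaged endpoint against untreated glands. Whether the numbers pair the libraries is not settled. Same-numbered pairs had correlations of -0.47 to 0.66, with a median of 0 against -0.02 for other pairs, and 10 of 18 libraries were closest to their own number. Low counts limit what can be said of many of the 51 keratins. Of them, 9 had fewer than 10 reads each, 19 had a median of 0 CPM over the 18 libraries, and 35 passed the filter. In 20, a single library held more than 50% of the summed CPM.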
